A study of Rattus norvegicus and Mus musculus with 10 samples.

Results

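The authors' cell annotation of the rat dura places 106 cells in a cluster called micro. These cells were chosen by that cluster name and the tissue label dura alone. They made up 2.14% of the 4953 annotated dural cells and are part of 21187 annotated rat cells. The study profiled immune cells of 6 compartments of naive Lewis rats (CNS, pia, dura, choroid plexus, CSF and blood) by droplet 3' RNA sequencing with version 2 chemistry, and 25 rats were used in all. Cells of dura, CNS, pia and choroid plexus had been sorted as CD45+ and free of a CD45 label given into the circulation, which removes cells inside blood vessels. Every compartment is 1 pooled library, so no group has replicates; neither the age of the rats nor the number pooled per library is given in the labels used here. All intervals below cover counting error only, and no p-value is given.

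Microglia are the resident macrophages of the brain and spinal cord and are known for genes such as Tmem119, P2ry12 and Sall1. Macrophages of the CNS borders, dura included, express Mrc1, Cd163, Pf4 and Clec10a, and many carry MHC class II. Osteoclasts are multinucleated cells of the same myeloid lineage that resorb bone. They acidify the bone surface with a proton pump that contains Atp6v0d2, supplied by the carbonic anhydrase Car2, and digest the matrix with cathepsin K (Ctsk), Mmp9 and the phosphatase Acp5.

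The 106 cells were not uniform, and the microglia label held for few of them. Set against 12 reference profiles, 71 cells lay nearest the dural macrophage clusters myeloid1 and myeloid 2, 15 nearest CNS micro, 15 nearest the dural B cell clusters, and 3 nearest dural pDC or myeloid3. The last 2 barcodes were kept apart because they carried nearly all osteoclast transcripts of the cluster. The cells are therefore called dural micro cells here, after the cluster name and not as a cell type. Their median depth was 1445.5 UMIs (501 to 6471), against 2326 in the 1033 dural cells of cluster myeloid 2 and 2722 in the 2974 CNS cells of cluster micro, the references used throughout. In all, 140 of the 4953 dural barcodes also occurred in another rat library, among them 2 of the 106. None of the 106 was also an annotated CNS micro barcode. The doublet caller Scrublet marked 5 of the 106.

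**Figure D1:**
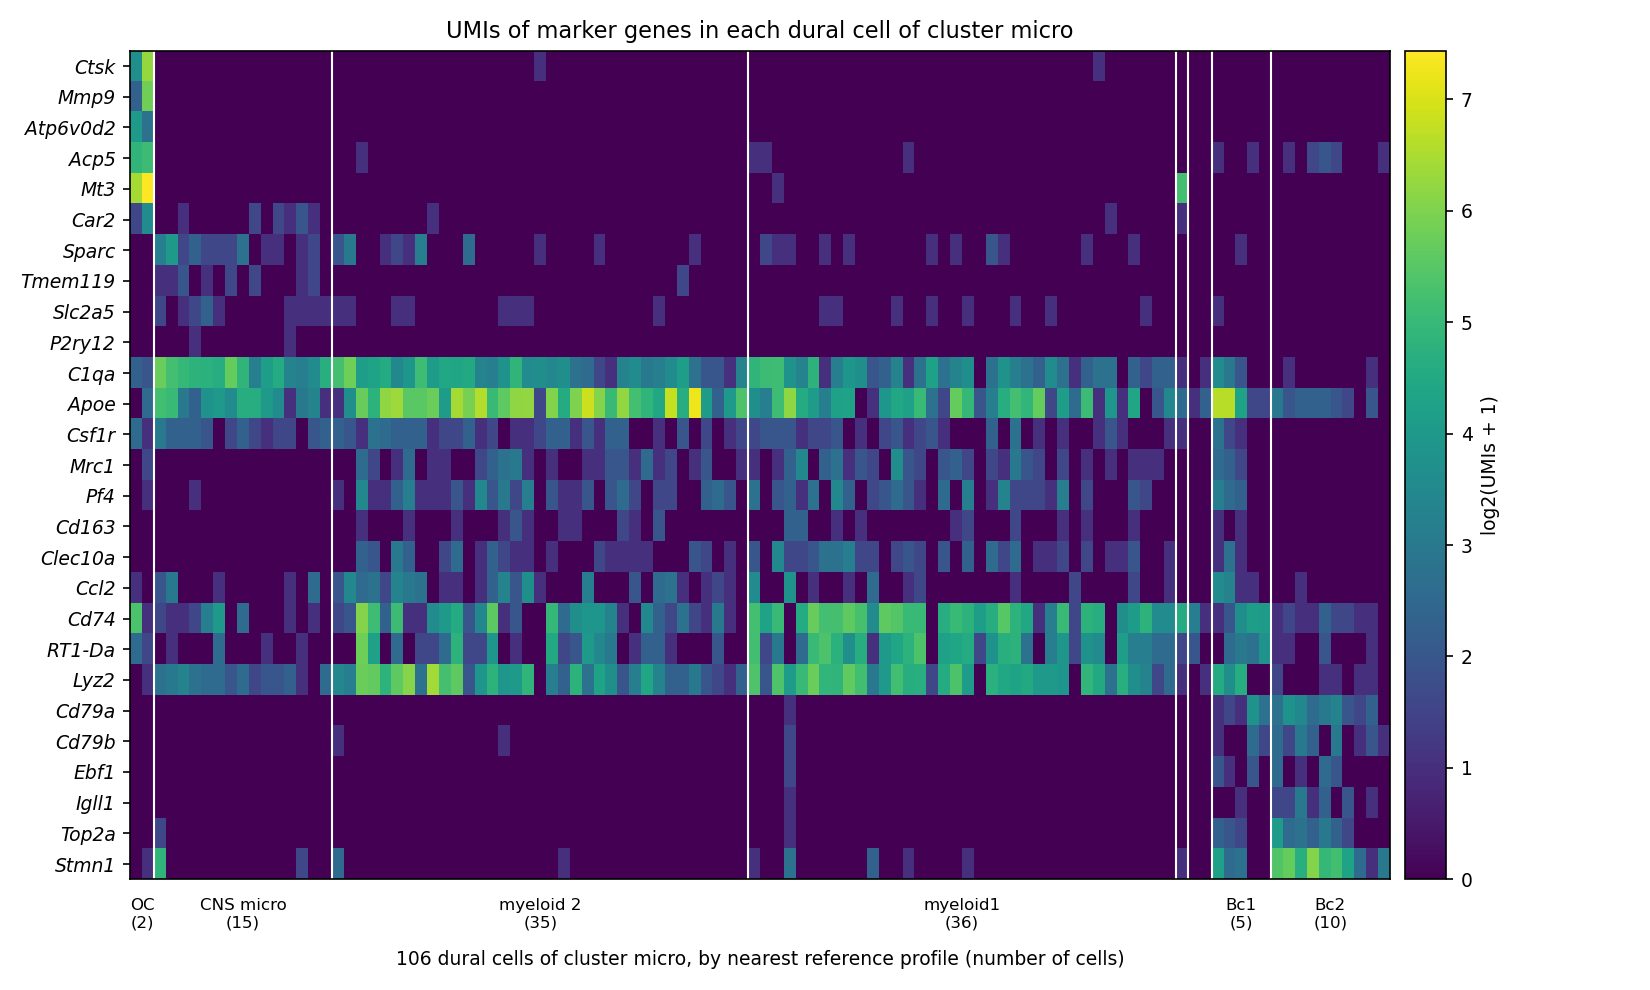
Each column is 1 of the 106 dural micro cells and each row a marker gene, with colour giving log2(UMIs + 1); cells are ordered by nearest reference profile (OC, the 2 barcodes high in osteoclast genes) and then by depth, and the 3 unlabelled columns between myeloid1 and Bc1 are nearest myeloid3 (1) or pDC (2). Ctsk, Mmp9 and Atp6v0d2 fill the first 2 columns, and of the next 15 columns 12 have Sparc and 8 have Tmem119. Mrc1, Pf4 and Cd74 are seen in most of the 71 macrophage columns, and Cd79a mainly in the B cell columns on the right.

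The osteoclast genes came from 2 barcodes. Ctsk was detected as 90 UMIs in 4 of the 106 cells, of which 76 lay in a first barcode (5656 UMIs in all) and 12 in a second (6471 UMIs in all), while the other 2 cells had 1 each. These 2 barcodes thus held 97.8% of the Ctsk of the cluster and 72.1% of that of all annotated dural cells. All 60 UMIs of Mmp9, a gelatinase, came from them, 56 in the first and 4 in the second. All 21 UMIs of Atp6v0d2, the osteoclast form of the pump's d subunit, did so too, with 6 and 15. Both barcodes carried both genes, in opposite proportions.

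Acp5, the tartrate-resistant acid phosphatase used to stain osteoclasts, was less confined. It had 76 UMIs in 13 cells, with 33 and 28 in the 2 barcodes and 15 over 11 others. Acp5 was also widespread in the dura outside the cluster: it was detected in 24.6% of Bc1 cells (21.8 to 27.7), 20.8% of myeloid1 cells (18.6 to 23.2) and 7.95% of CD4 Tc cells (5.90 to 10.4), a T cell cluster that serves as background here, with median depths of 850.5, 2192 and 1376 UMIs. Low Acp5 counts therefore do not single out a cell, and 7 of the other 11 cells lay nearest Bc1 or Bc2.

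Mt3, a metallothionein best known from brain, was the most abundant of these transcripts. It had 172 and 85 UMIs in the 2 barcodes, 36 in another barcode of 4432 UMIs that had none of Ctsk, Acp5, Atp6v0d2 and Mmp9, and 1 in a further cell. In the other clusters of the dura a cell held at most 16. Across annotated cells of the other libraries Mt3 stood at 344 CPM (its summed UMIs over all UMIs of the group, on the usual CPM scale) in CSF, where 48.6% of cells carried it and the highest had 33, and at 0.410 to 15.1 CPM in blood, CNS, choroid plexus and pia. Car2 was divided more evenly, with 11 and 2 of its 26 UMIs in the 2 barcodes and 6 of the 15 cells nearest CNS micro positive.

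The start region of the gene for Ctsk and that for Mt3 are shown because these transcripts were the most abundant of the set in the first barcode. The sequences are the 250 bases before the gene start in RefSeq's GRCr8 assembly, 5′ to 3′ on the gene's strand (the deposited counts used Rnor_6.0). Ctsk lies at chr2:185747298-185747547 on the plus strand and Mt3 at chr19:10856081-10856330 on the minus strand. Capitals mark matches on either strand to GGAAA (the core bound by NFAT factors such as Nfatc1), TGANTCA (AP-1), CACGTG (an E-box), TATAAA (the TATA box) and TGCACNC or TGCGCNC (the core of metal response elements).
Ctsk: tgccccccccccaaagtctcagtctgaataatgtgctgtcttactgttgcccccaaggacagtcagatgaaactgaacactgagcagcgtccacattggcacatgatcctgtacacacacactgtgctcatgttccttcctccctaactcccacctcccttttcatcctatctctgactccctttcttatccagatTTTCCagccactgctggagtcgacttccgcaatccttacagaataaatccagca
Mt3: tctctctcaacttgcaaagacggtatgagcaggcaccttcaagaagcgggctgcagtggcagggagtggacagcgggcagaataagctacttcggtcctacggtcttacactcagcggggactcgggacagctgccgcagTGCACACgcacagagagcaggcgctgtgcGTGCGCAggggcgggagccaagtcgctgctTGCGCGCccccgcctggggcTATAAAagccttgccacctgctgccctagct
The Ctsk window held 1 NFAT core, 54 to 50 bases before the start, and no match to the other motifs. Such a core occurs in 56.9% of 33469 rat windows of this length. The Mt3 window held a TATA box, 31 to 26 bases before the start (12.9% of windows have one), and 3 metal response cores (20.6% have at least 1). AP-1 and E-box letters, present in 6.34% and 5.59% of windows, were in neither. These matches describe the letters only. RefSeq's table also lists Acp5, whose window is not shown, and Atp6v0d2, Mmp9 and Car2 had no entry in it.

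Beyond the 6 genes, the highest ratios of the 2 barcodes over the other 104 dural micro cells by interval bound were those of Arsb, a lysosomal sulfatase, at 90.9-fold (20.2 to 836, with 2 UMIs in the others) and the tubulin Tubb6 at 40.4-fold (9.70 to 236, with 3). Arsb was at 990 CPM in the 2 barcodes, against 85.0 in myeloid 2 and 144 in CNS micro, and Tubb6 at 660 against 72.7 and 1.72. Several vacuolar proton pump subunits came next: Atp6v1b2 had 6 and 8 UMIs in the first and second barcode, Atp6v1d 9 and 14, Atp6v0e1 23 and 26, and Atp6v0c 28 and 32. Relative to the other cells, Atp6v1b2 was 17.7-fold higher in these 2 (7.59 to 41.8), Atp6v1d 9.68-fold (5.48 to 16.8) and Atp6v0c 5.22-fold (3.83 to 7.04). Other acid-secretion genes were at or near 0 in both: the chloride channel Clcn7 and the anion exchanger Slc4a2 had 0 UMIs, Atp6v0a1 and Atp6v0d1 each 1 in the first barcode and 0 in the second, and Tcirg1, the osteoclast a subunit of the pump, 0 and 3. The creatine kinase Ckb, which supplies energy to resorbing osteoclasts, had 35 UMIs in each. Its level was 5772 CPM over both, against 894 in myeloid 2 and 2804 in CNS micro. The lysosomal glycoprotein Cd68 had 17 and 30 UMIs. Respiratory chain and ATP synthase genes among the 30 highest ratios included Uqcr10 at 7.03-fold (4.68 to 10.4), Ndufb9 at 6.77-fold (3.84 to 11.5) and Atp5b at 5.26-fold (3.45 to 7.84). Of the 16 oxidative phosphorylation genes tested, none differed over 2-fold between the whole cluster and myeloid 2, where 18.2% of all genes tested were higher and 8.73% lower. Their median log2 ratio was 0.43, or 0.21 without the 2 barcodes and -0.16 with TMM scaling. The barcodes were picked for Ctsk, Acp5, Atp6v0d2 and Mmp9 after the counts were seen, so these ratios are descriptions.

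Several other genes of the osteoclast programme had no UMI. The fusion genes Dcstamp and Ocstamp, the calcitonin receptor Calcr, the integrin Itgb3 and the surface lectin Siglec15 had 0 UMIs in all 106 cells. Over the 195823 UMIs of the whole cluster this allows up to 18.8 CPM, the upper bound of the exact Poisson interval. The 2 barcodes held only 5656 and 6471 of these UMIs, so 0 UMIs there leaves a much higher level possible. All of these genes were also at 0 in myeloid 2, and only Itgb3 had any UMI in CNS micro (0.123 CPM). Nfatc1, the master transcription factor of osteoclasts, had 5 UMIs in 4 cells, none of them in the 2 barcodes. Tnfrsf11a, the receptor for the osteoclast signal RANKL, had 14 UMIs in 11 cells, 3 of the UMIs in the second barcode and 11 outside the 2. The macrophage transcription factor gene Mitf had 5 of its 8 UMIs in the second barcode. The adaptor Tyrobp, needed for fusion, had 60 and 45 UMIs in the 2 barcodes.

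Complement genes and Apoe were low in both barcodes, unlike Cd68 and Tyrobp. The complement genes C1qa, C1qb and C1qc together had 5 and 4 UMIs there, against medians of 56 in the cells nearest CNS micro and 32 in those nearest myeloid 2. Apoe had 5 and 0 UMIs, and class II genes 3 and 71. Csf1r, the receptor that maintains macrophages, had 1 and 5. Tmem119, P2ry12, Sparc, Cd163, Clec10a, Cd79a and Cd79b were at 0 in both. Neither was called a doublet by Scrublet. Of every rat barcode in the files, annotated or not, these were the only 2 with at least 10 UMIs over Ctsk, Acp5, Atp6v0d2 and Mmp9 of which at least 2 were of Ctsk or Atp6v0d2. Also at 10 UMIs or more over these genes were 1 dural myeloid1 cell, with 12, and 1 annotated blood barcode, but they missed the condition on Ctsk or Atp6v0d2. Osteoblast and bone matrix genes gave no further bone signal: 6 of 11 (Ibsp, Sp7, Dmp1, Phex, Sost and Postn) were at 0 in the 106 cells, and none of the 3 with enough counts differed over 2-fold from myeloid 2.

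**Figure D2:**
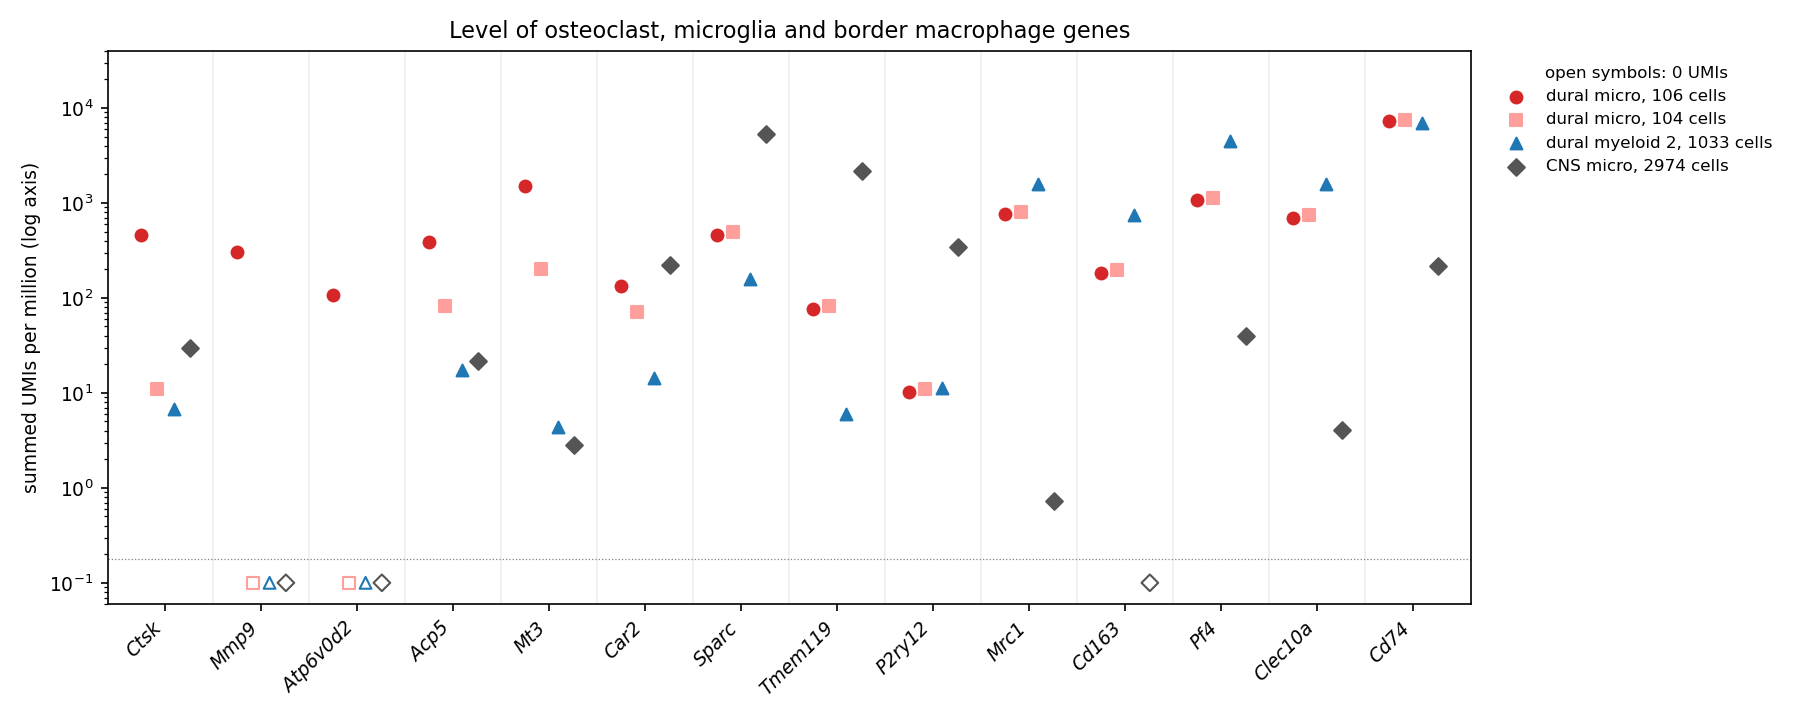
Summed level in CPM (log axis) of 14 genes in all 106 dural micro cells, in 104 of them without the 2 barcodes high in osteoclast genes, in dural myeloid 2 and in CNS micro; open symbols on the lowest line are 0 UMIs. Leaving out 2 cells takes Ctsk from 460 to 10.9 CPM and Mmp9 and Atp6v0d2 to 0, while the microglia and border macrophage genes move little.

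The whole cluster was then summed and compared with dural myeloid 2. Ctsk stood at 460 CPM against 6.75, or 68.1-fold higher (40.2 to 122), Acp5 at 388 against 17.5 (22.2-fold, 15.1 to 33.0) and Mt3 at 1501 against 4.37 (344-fold, 189 to 696). Mmp9 and Atp6v0d2 were at 0 in myeloid 2, which makes them at least 257-fold and at least 90.03-fold higher against a floor of 3 counts over that group. Without the 2 barcodes Ctsk was at 10.9 CPM, which is 2 UMIs, and Acp5 at 81.7 CPM. Of 6687 genes with at least 20 UMIs over both groups, 18.2% were over 2-fold higher in dural micro cells and 8.73% over 2-fold lower. Of the 16 genes of bone resorption, 12 had enough counts, of which 6 were over 2-fold higher and none lower. Mmp9 and Atp6v0d2 passed the minimum only through dural micro cells, where they were high, so nothing is read from this count. The median log2 ratio was 1.65 (all genes, 0.26), and 0.45 without the 2 barcodes. With trimmed-mean (TMM) scaling, which lowers every log2 ratio of this comparison by 0.59, it was 1.06. The 17 pump subunits had a median of 0.29, with 2 over 2-fold higher and 1 lower, which became -0.16 without the 2 barcodes and -0.30 with TMM scaling.

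Ctsk set the cluster apart less when compared with CNS micro. Those cells carried Ctsk at 29.9 CPM, as 1 to 3 UMIs in 215 of 2974 cells, and the dural micro sum was 15.4-fold higher (11.9 to 19.6). Without the 2 barcodes the direction turned, with 10.9 CPM in dura and a log2 ratio of -1.46. Acp5 was 18.1-fold higher (13.6 to 23.8) than its 21.5 CPM in CNS micro. Mmp9 and Atp6v0d2 had no UMI there, so they were at least 833-fold and at least 292-fold higher. Car2 was lower than in CNS micro, at 133 against 223 CPM (1.68-fold lower, 1.14 to 2.58). The resorption list had 6 of 13 tested genes over 2-fold higher than CNS micro and none lower, or 5 higher and 1 lower with TMM scaling (all 9016 genes, 20.8% and 13.6%). Here too Mmp9 and Atp6v0d2 passed only through dural micro cells. The median was 0.34, which became -0.27 without the 2 barcodes and -0.13 with TMM scaling. This comparison shares the dural micro cells with the previous one.

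Across 42 groups of at least 50 cells (a cluster within a compartment), the genes whose share of positive cells ranked most like that of Ctsk were Slc2a5 (Spearman's rho 0.84), Slco2b1 (0.80), Apoe (0.80), Trem2 (0.79) and Adgrg1 (0.78). These are genes of microglia and macrophages, not of bone resorption. The groups share libraries and differ in depth, so the values are descriptive.

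Microglia genes were far below their CNS level. Tmem119, a microglial surface protein, was at 76.6 CPM against 2186 in CNS micro, or 28.5-fold lower (17.3 to 51.0). The purinergic receptor P2ry12 was at 10.2 against 345 (33.7-fold lower, 9.33 to 279), with 2 UMIs in dura. The matrix protein Sparc was at 465 against 5296 (11.4-fold lower, 9.28 to 14.2). Sall1, a transcription factor of microglial identity, was nearer its CNS level, at 46.0 against 109 CPM (2.37-fold lower, 1.24 to 5.20). Of 14 microglia genes in the files 12 could be compared, and 10 were over 2-fold lower and none higher (all genes, 13.6% and 20.8%), with a median log2 ratio of -3.34 (all genes, 0.02). Several of them, such as Tmem119 and P2ry12, passed the minimum only through CNS micro, where they were high, so nothing is read from this count.

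Against myeloid 2 the same genes were partly higher. Tmem119 was 12.9-fold higher (5.86 to 28.2) than 5.96 CPM, Gpr84, a fatty acid receptor, 17.1-fold (7.61 to 39.7) than 4.76, and Sparc 2.93-fold (2.30 to 3.68). Of 9 genes with enough counts 4 were over 2-fold higher and none lower (all genes, 18.2% and 8.73%), with a median of 0.74. With TMM scaling 2 were higher and 1 lower, with a median of 0.15. At least 2 UMIs over 7 strict microglia genes were found in 14 of the 106 cells (13.2%, 7.41 to 21.2), against 97.6% of CNS micro, 6.10% of myeloid 2 and 0 of 591 dural CD4 Tc cells (up to 0.622%). Thinned to 1000 UMIs per cell, with 32 shallower cells left out, the dural micro share was 5.35% and the CNS share 88.3%.

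The microglia signal was concentrated in the 15 cells nearest CNS micro. Sparc was found in 12 of 15 (1711 CPM, 1253 to 2282), Slc2a5, a fructose transporter, in 9, Tmem119 in 8 (484 CPM, 257 to 827) and P2ry12 in 2. Of the border macrophage genes, Mrc1, Cd163, F13a1 and Clec10a had no UMI in them, Pf4 had 1 and Folr2, a folate receptor, 6 in 5 cells, and 2 of the 15 cells had at least 2 border UMIs. In turn, 11 of the 14 cells with strict microglia UMIs were among the 15. Even here Sparc and Tmem119 stood below the CNS micro sum, whose levels were 5296 and 2186 CPM. Cells of cluster micro nearest the CNS profile in other compartments were also lower: Sparc was at 3044 CPM in 76 cells of pia, 2438 in 89 of choroid plexus and 3547 in 88 of CSF, and Tmem119 at 751, 298 and 546. The dural interval for Tmem119 overlapped that of all 3, and that for Sparc the choroid plexus interval alone (2200 to 2694). As the cells were selected by this likeness, their levels are a description.

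**Figure D3:**
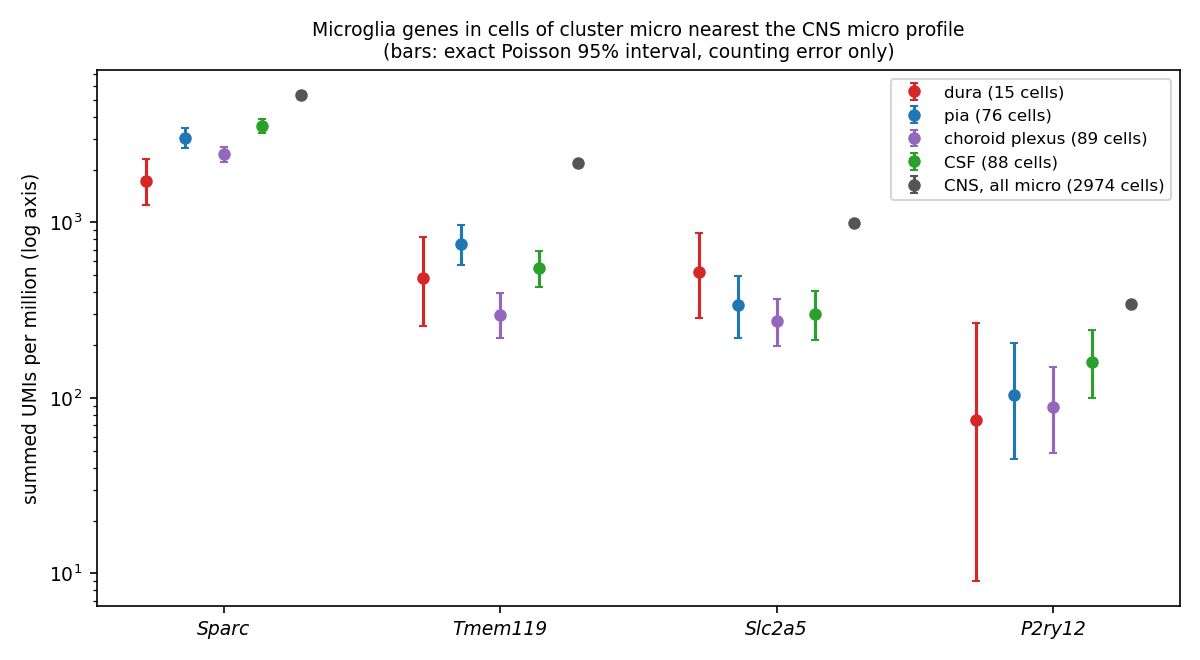
Summed level in CPM (log axis) of 4 microglia genes in cells of cluster micro nearest the CNS micro profile, by compartment, and in all CNS micro cells; bars are exact Poisson 95% intervals. The 15 dural cells lie below the CNS sum for Sparc, Tmem119, Slc2a5 and P2ry12.

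The share of such cells differed between compartments. In dura, 14.2% of cluster micro lay nearest CNS micro (8.14 to 22.3), against 24.4% in pia (19.8 to 29.6), 54.9% in choroid plexus (46.9 to 62.8) and 73.3% in CSF (64.5 to 81.0). Median depths were 1445.5, 867, 1611.5 and 1271.5 UMIs. When cells not used to build the references were assigned, 99.9% of CNS micro and 90.8% of myeloid 2 returned to their own cluster, 84.9% of myeloid1, 93.2% of Bc1 and 82.5% of Bc2. With micro cells of pia, choroid plexus and CSF added as references, 11 of the 15 stayed with CNS micro, 3 went to pial micro and 1 to choroid plexus micro. Each compartment is 1 library, so compartment and library cannot be told apart.

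**Figure D4:**
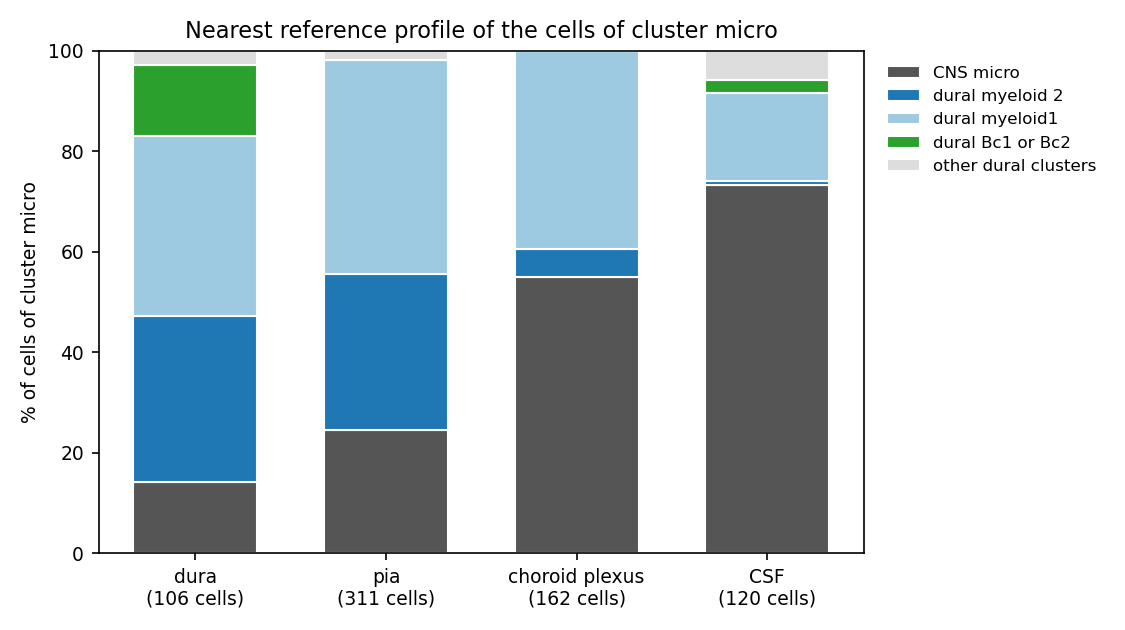
Stacked bars give the percent of cluster micro cells nearest each reference profile in dura, pia, choroid plexus and CSF (106, 311, 162 and 120 cells); in dura the 2 barcodes high in osteoclast genes are counted under myeloid1, their nearest profile. CNS micro takes 14.2% of the dural bar and 73.3% of the CSF bar, and the green B cell part is widest in dura.

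Border macrophage genes were the most common signature. At least 2 UMIs over 11 such genes were found in 69 of the 106 cells (65.1%, 55.2 to 74.1), against 99.8% of myeloid 2, 17.7% of CNS micro and 5.41% of dural CD4 Tc cells. The scavenger receptor Mrc1 was at 771 CPM against 0.735 in CNS micro, or 1048-fold higher (471 to 2902), and Cd163, the haemoglobin scavenger receptor, at 184 against 0, at least 499.9-fold higher. The chemokine Pf4 was 27.0-fold (22.6 to 32.2) and the lectin Clec10a 173-fold higher (118 to 261). Of 10 border genes compared with CNS micro, 8 were over 2-fold higher and none lower (all genes, 20.8% and 13.6%), with a median log2 ratio of 7.84. Several of them, such as Cd163 and Mrc1, passed the minimum only through dural micro cells, where they were high, so nothing is read from this count.

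The same genes were lower than in myeloid 2. Mrc1 was 2.04-fold lower (1.73 to 2.41), Cd163 4.05-fold (2.92 to 5.80), Pf4 4.22-fold (3.68 to 4.87) and Folr2 2.74-fold (2.25 to 3.38). All 11 had enough counts, and 10 were over 2-fold lower, against 8.73% of all genes; the exception was the transcription factor Maf, at 86.8 against 81.8 CPM. Their median log2 ratio was -1.51, and -1.47 without the 2 barcodes. MHC class II genes lay close to the myeloid 2 level. Cd74, the invariant chain, was at 7216 against 6906 CPM, RT1-Da at 3947 against 4052 and RT1-Db1 at 3074 against 2879, and none of 5 tested genes differed over 2-fold (median log2 ratio 0.06, and -0.53 with TMM scaling). Against CNS micro Cd74 was 33.0-fold (30.8 to 35.4) and RT1-Da 72.2-fold higher (64.2 to 81.3).

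Many chemokines were also lower than in myeloid 2. The monocyte attractants Ccl2 and Ccl7 were 11.2-fold (9.71 to 13.01) and 13.7-fold lower (11.5 to 16.4), the neutrophil attractant Cxcl1 12.9-fold (10.4 to 16.1) and the eosinophil attractant Ccl24 8.48-fold (5.64 to 13.4). Apoe, a lipid carrier, was at 14610 against 79831 CPM, 5.46-fold lower (5.27 to 5.67). The macrophage lectin Cd209f had 1 UMI (35.1-fold lower, 6.26 to 1388) and the growth factor binding protein Igfbp4 none, which makes it at least 9.10-fold lower than its 139 CPM. Of 13 chemokine and cytokine genes tested, 8 were over 2-fold lower and none higher (all genes, 8.73% and 18.2%), with a median of -2.08. Immediate-early and heat shock genes used to read dissociation stress moved with them, with 6 of 12 over 2-fold lower, none higher and a median of -0.95. With TMM scaling all 12 were over 2-fold lower (median -1.54). Their part in the chemokine difference was not tested. Ccl4 was at 2313 against 2638 CPM.

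Within the cluster, the 71 cells nearest dural macrophages were divided between myeloid 2 and myeloid1. The counts used to divide them included Apoe, Ccl2 and class II genes, so the differences between these parts are a description. The 35 nearest myeloid 2 had Apoe at 33439 CPM, Cd74 at 7146 and Ccl2 at 2045. The 36 nearest myeloid1 had Apoe at 11727, Cd74 at 15936 and Ccl2 at 735 CPM. Both held Mrc1 and Pf4 (1108 and 1834 CPM in the former, 1470 and 1709 in the latter). They differed from their references in both directions. Apoe and Ccl2 were lower in the former than in all myeloid 2 cells (79831 and 10760 CPM), while Cd74 was near its level there (6906). In the latter Cd74 was lower than in all myeloid1 cells (36709 CPM), Mrc1 and Pf4 were higher (593 and 1210 in all myeloid1), and Ccl2 was near its level (715). Border macrophage UMIs marked 63 of the 71, and strict microglia UMIs 3.

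A B cell lineage part was present as well. At least 2 UMIs over Cd79a, Cd79b, Ms4a1 and Ebf1 were found in 14 of the 106 cells (13.2%, 7.41 to 21.2), against 1.55% of myeloid 2, 1.86% of CD4 Tc and 96.9% of Bc1 cells. The receptor component Cd79a was at 424 CPM against 29.8 in myeloid 2 and 0.490 in CNS micro, and the B lineage factor Ebf1 at 117 against 5.16 and 0.245. Of the 10 cells nearest Bc2, 9 carried these markers, 8 had at least 2 UMIs of mitosis genes and 7 had Igll1, the surrogate light chain of B cell precursors, at 610 CPM. Of the 5 nearest Bc1, 3 also had border macrophage UMIs and 2 were called doublets by Scrublet.

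Dividing-cell genes followed these cells. Top2a, the topoisomerase of replicating cells, was at 286 CPM against 17.9 in myeloid 2 (16.0-fold higher, 10.6 to 24.2), Stmn1, a microtubule regulator, at 1833 against 172 (10.7-fold, 9.27 to 12.3) and Ube2c, a mitotic ubiquitin enzyme, at 342 against 25.4 (13.5-fold, 9.41 to 19.3). All 11 proliferation genes tested were over 2-fold higher (all genes, 18.2%), with a median log2 ratio of 3.46. Leaving out the 14 cells with B cell markers took this median to 0.75 and Top2a to 26.4 CPM. The pan B list went from 3.79 to -0.36, which follows from leaving out the cells by those genes.

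**Figure D5:**
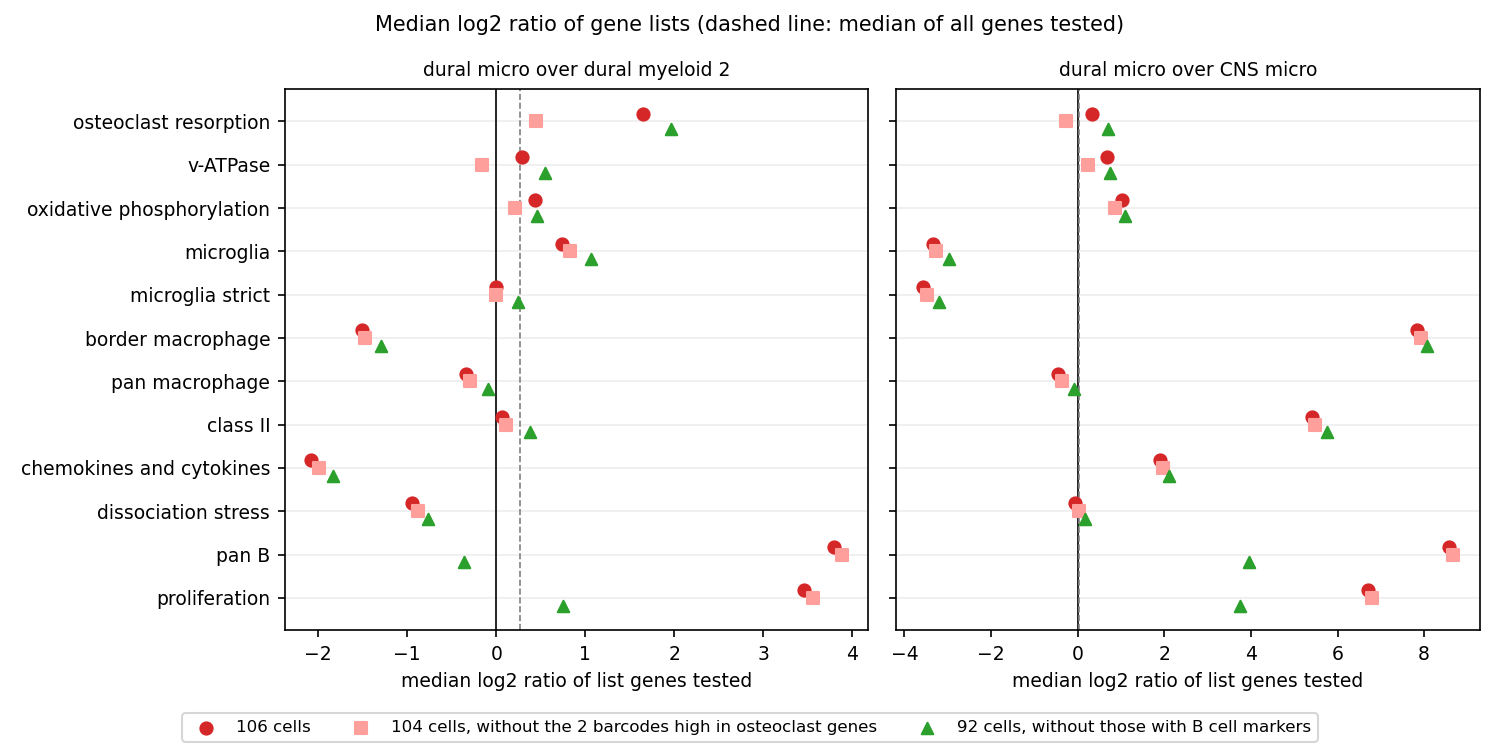
Median log2 ratio of 12 gene lists in dural micro cells over dural myeloid 2 (left) and over CNS micro (right), for all 106 cells, without the 2 barcodes high in osteoclast genes and without the 14 cells with B cell markers; the dashed line is the median of all genes tested. The resorption list moves most when the 2 barcodes leave, the pan B and proliferation lists when the B-marked cells leave, and the border macrophage list stays below 0 on the left and near 8 on the right.

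Most marked cells had the mark of 1 lineage, mainly border macrophage genes, while part of the microglia and B cell marks came together with another. Counting 2 UMIs or more as a mark, 60 cells had border macrophage genes alone, 9 microglia genes alone, 8 B cell genes alone and 16 none; 5 had microglia and border genes together and 3 border and B cell genes. The osteoclast mark, which needs 2 UMIs over 4 genes, was met by 5 cells (4.72%, 1.55 to 10.7): the 2 barcodes, and 3 cells with B cell markers that had 2 or 3 UMIs. Of the rest, 10 cells had 1 UMI and 91 none. Without thinning, this share lay near that of dural Bc2 (5.39%) and myeloid1 (6.46%) and above that of CD4 Tc (1.35%) and myeloid 2 (0.387%). It lay below that of dural mDC1 (13.5%), where the median depth was 4487.5 UMIs. Dural granulo cells reached 19.4%, through Mmp9, which neutrophils also make, at 416 CPM. The counts per cell separate the 2 barcodes, with 171 and 59 UMIs over the 4 genes.

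Clustering the 106 cells anew gave 6 groups that followed the nearest profiles in part. One of 22 cells, led by Ccl7, Fxyd2 and C5ar1, held 21 of the cells nearest myeloid 2, and one of 25, led by Cd74, RT1-Da and RT1-Db1, held 20 of those nearest myeloid1. One of 15 cells, led by Cd24, Pttg1 and Top2a, held all 10 nearest Bc2 and 13 of the 14 B-marked cells. The 15 cells nearest CNS micro divided between 2 groups, 7 in a group with 4 cells nearest myeloid 2 and 3 nearest myeloid1, and 8 in a group with 6 and 1. Of these groups, one of 14 cells was led by Ltc4s, Ctss and Rnaset2. The other, also of 15 cells, was led by the scavenger receptor Olr1 and the chemokines Ccl4 and Ccl3, with Ccl4 at 10837 CPM against 436 in the rest of the cluster. The 2 osteoclast barcodes lay in a group of 15 led by Mt3, Mmp9 and Ctsk, in which 10 cells lay nearest myeloid1. A mast cell protease, Tpsab1, also led that group, with all of its 24 UMIs there in a cell called a doublet.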

How the data were processed

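The deposited values are UMI counts per gene and barcode; per the submitters' processing notes they came from Cell Ranger 3.1.0 (the matrix header reads 3.0.2) on Rnor_6.0. Cluster and tissue labels are the authors' deposited annotation. Clusters, members and gene lists were defined or chosen with earlier results of these data known, and the clusters came from these same genes. Counts were summed per cluster and library (Python 3.11.15, scipy 1.17.1). Ratios carry exact conditional binomial intervals, CPM exact Poisson and shares Clopper-Pearson intervals, all at 95%. A gene was called past 2-fold, with at least 20 UMIs over both sides; a count of 0 was set to a floor of 3 counts over the group. Named genes were taken from the gene lists, from the 12 highest and 12 lowest in each comparison by the interval bound nearest 1, and from the 10 most like Ctsk; single genes beyond these were chosen after their values were seen. Shares were also thinned to 1000 UMIs per cell. Cells were assigned to the reference profile under which their counts had the highest multinomial likelihood, with 1 CPM added to every gene of a profile. The dural micro cells were re-clustered with scanpy 1.11.5 (Leiden, 10 components, 10 neighbours, resolution 1). Doublets were called with Scrublet but kept; it marked 70 of 4953 dural cells and 0 in CNS and 4 in pia, where it did not work. For the TMM alternative, scaling was taken from edgeR (version 4.0.16, with R 4.3.3). The ratio code was tested on simulated data.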

Additional observations from a re-analysis of the deposited data

Results flagged for a closer look

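Among the 241 dural barcodes that carry no annotation, which enter no comparison above, 7.47% (18 barcodes, 4.49 to 11.5) had at least 2 UMIs over Ctsk, Acp5, Atp6v0d2 and Mmp9. They are listed because the share lies above 1.24%, the floor set for a count of 0. This is a low bar: the same share was 5.39% in annotated Bc2 and 6.46% in myeloid1 cells, both within the interval. The highest had 5 UMIs, against 171 and 59 in the 2 dural micro barcodes, and the median depth of the 241 was 3257 UMIs.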

How the results depend on the processing

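Of 453 recomputed values for 63 named gene ratios, 451 kept their direction. The exceptions were Cd79a over myeloid 2 without the cells with B cell markers (log2 ratio -2.17) and Ctsk over CNS micro without the 2 osteoclast-gene barcodes (-1.46), both alternatives added after seeing the data; the first follows from the cells left out. The 63 values with no minimum and the 37 with at least 100 UMIs could not change, as these settings only choose which genes are tested. The named genes were also picked for large ratios, so nothing is read from the count of 451. TMM scaling shifted log2 ratios by -0.59 against myeloid 2 and -0.46 against CNS micro. With it, 439 genes were over 2-fold higher and 1403 lower than in myeloid 2 (1216 and 584 without), 1059 higher and 2062 lower than in CNS micro (1873 and 1230 without), and the border macrophage median against myeloid 2 was -2.10. Higher genes thus made up 23.8% rather than 67.6% of calls against myeloid 2, and 33.9% rather than 60.4% against CNS micro. With no minimum, 3098 and 3164 genes were higher than in myeloid 2 and CNS micro. With at least 100 UMIs, 248 were higher and 223 lower than in myeloid 2, and 903 higher than in CNS micro, as fewer genes were tested. At 1 UMI the shares of marked cells were 14.2% for osteoclast, 33.0% for strict microglia and 74.5% for border genes. At 4 UMIs they were 1.89% for strict microglia and 52.8% for border genes. Thinning gave 5.35% for strict microglia. No paired analysis was possible because each group is 1 library. Depth limits P2ry12, Cd209f and Ctsk outside the 2 barcodes, which rest on 1 or 2 UMIs.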
